A study of Mus musculus with 8 samples.

Results

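*Mytho*, listed on the array as *D230025D16Rik* (Entrez gene 234678), and 7 genes beside it on mouse chromosome 8 were followed in gastrocnemius (GAS) muscle. The members were the probe sets whose gene symbol was *D230025D16Rik*, *Cbfb*, *B3gnt9*, *Tradd*, *Fbxl8*, *Hsf4*, *Nol3* or *Exoc3l*. Each symbol matched 1 probe set, which gave 8 of the 22206 probe sets measured. All mice were wild-type C57/Bl6j males, aged about 10 weeks at injection and labelled as 14 weeks old. One GAS muscle of a mouse received an adeno-associated virus (AAV) with a short hairpin RNA against the *Mytho* transcript (AAV sh-RNA MYTHO), and the muscle of the other leg received a virus with a scrambled hairpin (AAV sh-RNA scrmb). Total RNA was taken 3 weeks later and hybridised to Clariom S Mouse arrays, with 4 arrays in each group. Both viruses used the U6 promoter, which is not restricted to a cell type, so both groups carried an AAV and a hairpin, and no uninjected muscle was analysed here. The same 4 animals, called A to D here, gave both groups. The question was how far the hairpin lowered its target at 3 weeks, and what the genes that share its stretch of chromosome did at the same time.

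MYTHO is a conserved protein whose human counterpart is C16orf70, also called PHAF1. It is found on autophagosomes, the membrane sacs in which a cell encloses its own material for delivery to lysosomes, and it binds BCAS3 at the forming membrane. The study took up the gene as a candidate target of the FoxO transcription factors, which switch on autophagy genes in fasting or denervated muscle. A short hairpin RNA is cut into a small interfering RNA that guides cleavage of matching transcripts, so it acts on RNA. The neighbours serve roles in transcription, glycan synthesis, death receptor signalling, ubiquitin ligation, the heat shock response, the block of apoptosis and vesicle tethering.

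On the mouse build mm10 (RefSeq assembly GRCm38.p6), *D230025D16Rik* spans chr8:105225146-105253053. *Cbfb* lies before it, at chr8:105170674-105217989, with 7156 bp between the genes. *B3gnt9*, at chr8:105252638-105255250, overlaps the end of *D230025D16Rik* by 416 bp. *Tradd* follows at chr8:105258575-105264594, 5521 bp from *D230025D16Rik*. *Fbxl8* (chr8:105264648-105269326), *Hsf4* (chr8:105269414-105275845) and *Nol3* (chr8:105276145-105281939) are packed close behind it. Only 53 bp separate *Tradd* from *Fbxl8*, 87 bp separate *Fbxl8* from *Hsf4*, and 299 bp separate *Hsf4* from *Nol3*. *Exoc3l*, at chr8:105289923-105296966, is the farthest member, 36869 bp from *D230025D16Rik*. The array annotation put *Fbxl8*, *Hsf4* and *Nol3* in band 8 D1 and the other members in band 8 D3, although *Exoc3l*, listed in 8 D3, lies beyond all 3. Where the probes lie within each gene was not given in the sources used here, so it is not known whether any probe falls in the stretch that *D230025D16Rik* and *B3gnt9* share.

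The table of RefSeq start regions used here matched 2 of the 8 members. A start region runs from 250 bases before to 50 bases after a start site, and both lie on the plus strand. For *Cbfb* this site is the first base of the interval given above, whereas for *D230025D16Rik* it lies a little inside the gene's interval. They are shown because *D230025D16Rik* and *Cbfb* run in the same direction and are neighbours, and because the study took up *Mytho* as a FoxO-dependent gene. Capitals mark the letters TGTTT, the short core of a FoxO site, searched on both strands together with its reverse complement AAACA.
D230025D16Rik, chr8:105224937-105225236: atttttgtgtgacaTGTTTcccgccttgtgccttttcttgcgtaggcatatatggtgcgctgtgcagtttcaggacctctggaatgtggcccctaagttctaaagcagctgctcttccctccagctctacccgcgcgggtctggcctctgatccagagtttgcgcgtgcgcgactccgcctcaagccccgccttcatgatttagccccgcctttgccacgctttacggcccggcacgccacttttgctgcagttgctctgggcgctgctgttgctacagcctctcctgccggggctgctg
Cbfb, chr8:105170424-105170723: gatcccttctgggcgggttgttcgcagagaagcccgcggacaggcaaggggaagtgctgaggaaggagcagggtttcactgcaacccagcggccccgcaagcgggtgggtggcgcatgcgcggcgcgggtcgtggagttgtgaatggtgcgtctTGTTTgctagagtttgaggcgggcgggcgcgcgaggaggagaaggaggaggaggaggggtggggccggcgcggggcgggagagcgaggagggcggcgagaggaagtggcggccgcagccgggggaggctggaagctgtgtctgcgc
Each sequence held TGTTT once, at base 15 in *D230025D16Rik* and base 155 in *Cbfb*, and 50.5% of the 32851 mouse start regions of this length held it on either strand. The longer FoxO core TGTTTAC, found in 3.65% of start regions, had no match in either sequence. Neither did the RUNX core TGTGGT (16.8%), the heat shock pattern GAANNTTC (7.86%) or the E-box CACGTG (7.15%). Sites outside these sequences were not searched, so the missing match does not bear on whether FoxO factors control *Mytho*. In the study, starvation raised *Mytho* in control muscle but not in muscle lacking *FoxO1*, *FoxO3* and *FoxO4*. GGGCGG, a pattern bound by SP and KLF factors and present in 35.7% of start regions, occurred 4 times in *Cbfb* and had no match in *D230025D16Rik*. Both sequences were rich in CpG, with 19 in *D230025D16Rik* and 30 in *Cbfb* against a median of 7 over all start regions. Their GC content was 59.0% and 69.7%, respectively.

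Signals are given as log2 values, so a difference of 1 is a 2-fold change, and each fold change compares a probe set with itself on other arrays. Ranks and sums over probe sets serve only to place signals on the range of the array, since probes differ in brightness. The 8 arrays had median log2 signals between 6.39 and 6.47, and all signals lay between 2.38 and 19.93. The tissue label held, since all 8 skeletal muscle markers (*Ckm*, *Acta1*, *Mylpf*, *Tnnt3*, *Tnni2*, *Pvalb*, *Myh4* and *Atp2a1*) were in the upper 50% of probe sets by signal, and their summed log2 level was 22.70 to 22.73 in scrmb and 22.69 to 22.72 in MYTHO. These sums cannot show a difference between the groups, because *Acta1*, *Myh4* and *Atp2a1* were at the ceiling of 19.93 on all 8 arrays and most of the others close to it. Of 29 markers of muscle and 7 other cell types, none had an adjusted p under 0.05 in limma. At an unadjusted p under 0.05 there were 3, *Pecam1* (higher), *Ptprc* and *Dcn* (both lower), a share no higher than the 12.4% over all probe sets. The summed log2 level of 3 endothelial markers was higher on every MYTHO array (13.76 to 13.90) than on the scrmb arrays (13.25 to 13.59). That of 3 fibroblast markers was lower on every MYTHO array (17.02 to 17.62) than on the scrmb arrays (17.64 to 18.06), and came mostly from *Dcn*, at 17.63 to 18.06 in scrmb and 17.01 to 17.62 in MYTHO. Blood markers ran from 14.4 to 17.0 in scrmb and from 15.6 to 18.2 in MYTHO, and adipocyte markers from 6.29 to 11.8 and from 7.07 to 13.2. Macrophage markers ran from 8.40 to 8.94 and from 8.50 to 9.10, Schwann cell markers from 8.48 to 11.1 and from 8.43 to 9.64, and the satellite cell markers *Pax7* and *Myf5* from 5.69 to 6.01 and from 5.68 to 6.05. The part of these other cell types in the results below was not tested, and in whole muscle fewer cells of a type cannot be told apart from less RNA per cell.

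*Mytho* fell in all 4 MYTHO-KD muscles. The scrmb muscles of animals A to D had log2 signals of 11.35, 11.31, 10.78 and 11.05, with a mean of 11.12 ± 0.26 (SD, n = 4). In the MYTHO muscles of the same animals it was 8.16, 8.20, 8.80 and 8.08, with a mean of 8.31 ± 0.33 (SD, n = 4). The groups were far apart, with 1.98 between the highest MYTHO and the lowest scrmb signal. The log2 fold change, MYTHO minus scrmb, was -2.81 (SE 0.21, 95% interval -3.28 to -2.34), with an adjusted p of 0.00044 in limma over all 22206 probe sets. This left 14.2% of the scrmb signal, a level 7.03-fold lower. An exact two-sided permutation test, which relabels the arrays in 70 ways, gave p = 0.0286, the smallest that 4 arrays against 4 can give. That test ignores that the 2 groups share their animals. Exchanging only the 2 legs of each animal, an exact test added after the data were seen, allows 16 arrangements and gave p = 0.125, the smallest it can give, so it cannot pass the threshold. No other probe set had a lower log2 fold change.

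The depth of the knockdown was uneven between the animals. Animals A, B and D kept 11%, 11.6% and 12.8% of the signal in the scrmb leg, whereas animal C kept 25.3%. Animal C combined the lowest scrmb signal with the highest MYTHO signal. Its difference of -1.98 stood against -3.19, -3.11 and -2.97 in animals A, B and D. Leaving out the MYTHO muscle of animal C moved the log2 fold change to its lowest value over the arrays left out in turn, -2.98, and the call held for each array left out.

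**Figure D1:**
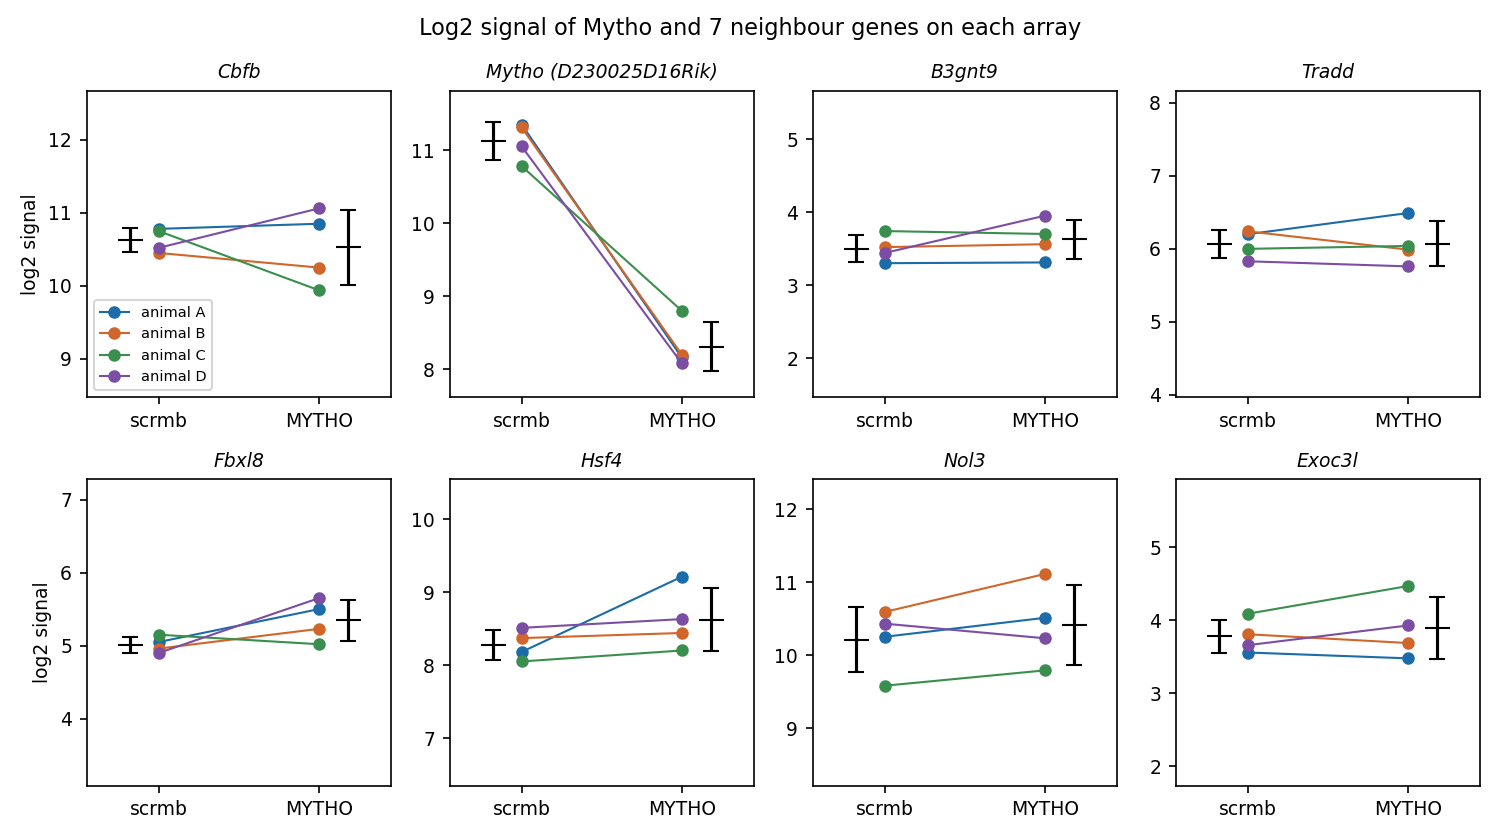
Log2 signal of *Mytho* and its 7 neighbours in chromosome order, with scrmb and MYTHO on the x axis of each panel. Points are single arrays, lines join the 2 legs of an animal, black bars are the mean ± SD of 4 arrays, and every panel spans the same range of log2 units; the groups separate for *Mytho*, from 10.78 or more down to 8.80 or less, and overlap for the neighbours.

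None of the 7 neighbours passed the test in either direction. Of the 8 members, 1 was called at an adjusted p under 0.05, *Mytho* itself, against 0.027% of all probe sets (2 or 0.00901% higher and 4 or 0.018% lower, against 5 higher and 39 lower after median centring of each array). At the threshold of the study, a 2-fold change with an unadjusted p under 0.05, *Mytho* was again the 1 member called, against 1.51% of all probe sets (0.261% higher and 1.25% lower). The groups overlapped for all 7 neighbours, whereas they did not overlap for 6.46% of all probe sets (2.59% higher and 3.87% lower). No neighbour had an unadjusted limma p under 0.05 either, compared with 12.4% of all probe sets (4.81% higher and 7.58% lower). The neighbours' log2 fold changes ran from -0.10 to 0.34 with a median of 0.13, beside a median of -0.005 over all probe sets, and 6 of the 7 were positive. Their adjusted p-values ran from 0.501 to 0.998, and their exact permutation p-values over all relabellings from 0.0857 to 1.

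The intervals set the size of change that these arrays could have missed. All 7 intervals spanned 0. All of them also lay above -1 and below 1, so none reached a 2-fold change of the group mean in either direction. For *B3gnt9* and *Exoc3l*, whose signals were in the lowest 25% of the array, this does not bound the change of the transcript, since differences are compressed at low signal. The same limit may hold for *Fbxl8*, whose mean signals of 5.015 in scrmb and 5.35 in MYTHO lay little above that share. The lowest bound was -0.64, for *Cbfb*, and the highest was 0.84, for *Hsf4* and *Nol3*. The measurements therefore do not show that the neighbours were unaltered, since changes of any size inside these intervals remain possible.

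**Figure D2:**
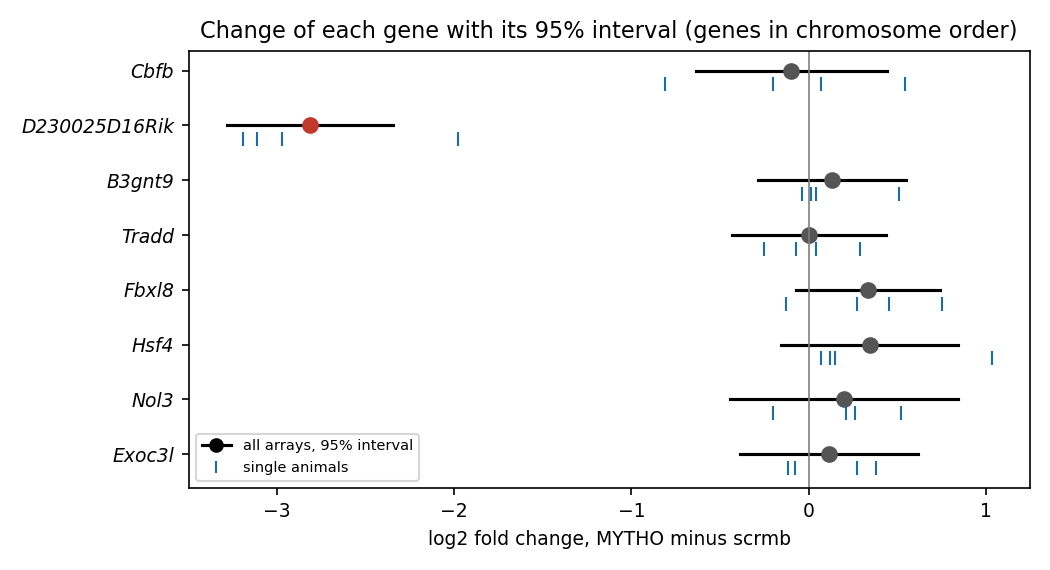
Log2 fold change, MYTHO minus scrmb, of each gene in chromosome order, with circles for the estimate over all arrays, black lines for the 95% interval from limma and blue ticks for the 4 single animals. *Mytho* (red, adjusted p under 0.05) sits at -2.81, and the intervals of the 7 neighbours all include 0.

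*Cbfb* and *Hsf4* encode regulators of transcription. CBFB is the subunit of core-binding factor that does not touch DNA and steadies the RUNX proteins on it. In animals A to D, the log2 signal of *Cbfb* was 10.78, 10.45, 10.75 and 10.52 in scrmb, and 10.85, 10.25, 9.94 and 11.06 in MYTHO. The MYTHO muscles lay on both sides of the scrmb range, and the SD was 0.52 in MYTHO against 0.16 in scrmb. The log2 fold change was -0.10 (SE 0.25, 95% interval -0.64 to 0.44), with an adjusted p of 0.908. The differences within animals ran from -0.81 in animal C to 0.54 in animal D, and 2 of the 4 were positive. The MYTHO leg of animal C had the lowest *Cbfb* signal of all arrays, and the scrmb leg of that animal was among the higher of its group.

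HSF4 is a heat shock transcription factor best known for its role in the lens. The log2 signal of *Hsf4* was 8.18, 8.37, 8.05 and 8.51 in scrmb, and 9.21, 8.44, 8.20 and 8.63 in MYTHO. It was the 1 neighbour that was higher in the MYTHO leg of all 4 animals, by 1.03, 0.07, 0.15 and 0.12. The difference in animal A was many times those in the other animals. It had a log2 fold change of 0.34 (SE 0.23, 95% interval -0.15 to 0.84; adjusted p = 0.586), and it was 0.15 without the MYTHO array of animal A.

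*Tradd* and *Nol3* belong to opposite arms of the control of cell death. TRADD is the adaptor that binds the death domain of tumour necrosis factor receptor 1. *Tradd* had a log2 signal of 6.20, 6.24, 6.0 and 5.83 in scrmb and of 6.49, 5.99, 6.04 and 5.76 in MYTHO, with means of 6.07 in both groups. This gave a log2 fold change of 0.0025 (SE 0.20, 95% interval -0.43 to 0.44; adjusted p = 0.998), the smallest in size among the members. NOL3, also called ARC, blocks apoptosis through its CARD domain and is abundant in skeletal and heart muscle. The log2 signal of *Nol3* was 10.25, 10.59, 9.58 and 10.43 in scrmb and 10.51, 11.11, 9.79 and 10.23 in MYTHO. It was higher in the MYTHO leg of 3 of the 4 animals, and animal C was the lowest in both groups. For *Nol3* the log2 fold change was 0.20 (SE 0.29, 95% interval -0.45 to 0.84; adjusted p = 0.837).

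*Fbxl8*, *B3gnt9* and *Exoc3l* encode a ubiquitin ligase adaptor, a glycosyltransferase and a relative of a vesicle tether. FBXL8 is an F-box protein that carries substrates to SCF ubiquitin ligases. The log2 signal of *Fbxl8* was 5.05, 4.96, 5.15 and 4.90 in scrmb and 5.50, 5.23, 5.02 and 5.65 in MYTHO. It was higher in the MYTHO leg of animals A, B and D, and the MYTHO muscle of animal C kept the groups from separating. Its log2 fold change of 0.335 (SE 0.19, 95% interval -0.07 to 0.74) came with the lowest p-values among the neighbours, an adjusted p of 0.501 and an exact permutation p of 0.0857, and neither passed the threshold.

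*B3gnt9*, whose product belongs to the family that adds N-acetylglucosamine to galactose, is the member that overlaps *Mytho* on the chromosome. Its log2 signal was 3.30, 3.52, 3.74 and 3.44 in scrmb and 3.31, 3.56, 3.70 and 3.95 in MYTHO. In animals A, B and C both legs differed by 0.01, 0.04 and -0.04, and in animal D by 0.51. The log2 fold change was 0.13 (SE 0.19, 95% interval -0.29 to 0.55; adjusted p = 0.835). *Exoc3l* is a relative of the exocyst subunit gene *Exoc3*. It had a log2 signal of 3.56, 3.81, 4.09 and 3.66 in scrmb and of 3.48, 3.69, 4.47 and 3.93 in MYTHO. It was lower in the MYTHO leg of animals A and B and higher in that of animals C and D. Its log2 fold change was 0.11 (SE 0.23, 95% interval -0.39 to 0.61; adjusted p = 0.888). The probe sets of *B3gnt9* and *Exoc3l* had mean signals in the lowest 25% of the array, and those of *Tradd* and *Fbxl8* in its lower 50%, so for *B3gnt9* and *Exoc3l* a change was read near the lower end of the array's range. *Fbxl8* lay little above the lowest 25%.

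Within single animals, the neighbours did not follow the depth of the knockdown in one direction. In the MYTHO leg 6 of the 7 were higher in animal A, 4 in animal B, 4 in animal C and 5 in animal D. The median difference of the 7 was 0.26, 0.04, 0.04 and 0.27 in animals A to D. Over the 8 arrays, the Pearson correlation of log2 signal with *Mytho* ran from -0.76 for *Fbxl8* to 0.04 for *Tradd*. The arrays form 2 groups that *Mytho* separates, so the correlation was also taken over deviations from the group means. Within groups it was -0.73 for *Fbxl8*, -0.67 for *Cbfb*, against 0.03 over all arrays, and 0.35 for *Exoc3l*, against -0.12. For *Hsf4*, *B3gnt9*, *Nol3* and *Tradd* it lay between -0.36 and 0.23. These values are a description over 8 arrays that come in pairs from the same animals. The MYTHO array of animal C had the highest *Mytho* signal of its group (8.80). It also had the lowest *Cbfb* (9.94), the lowest *Fbxl8* (5.02) and the highest *Exoc3l* signal (4.47) of that group. The correlations of these genes within groups lean on this array and were not taken without it.

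The wider region was read in the same way. Within 500 kb of *Mytho*, RefSeq listed 55 further genes, of which 34 were on the array in 33 probe sets. None was called at an adjusted p under 0.05 in limma, 3 were higher and 2 lower at an unadjusted p under 0.05 (15.2%, against 12.4% of all probe sets), and the median log2 fold change was 0.025. That median depended on signal. In the upper 75% of probe sets by signal it was 0.12, beside 0.0025 over all probe sets kept. In the upper 50% it was 0.26, beside 0.02. Groups did not overlap for 2 of them, or 6.06%, which is near the 6.46% over all probe sets. *E2f4*, which encodes an E2F factor that represses cell cycle genes together with pocket proteins, lies 44.6 kb from *Mytho*. Its log2 signal was 9.67, 9.42, 8.88 and 9.65 in scrmb and 10.19, 10.25, 9.98 and 9.99 in MYTHO. Every MYTHO muscle was above every scrmb muscle, and the log2 fold change was 0.70 (SE 0.21; adjusted p = 0.213). *Ctcf*, which encodes the zinc finger protein that bounds chromatin loops, lies 383 kb away. Its log2 signal was 10.87, 10.83, 10.66 and 10.79 in scrmb and 9.95, 10.50, 10.16 and 10.32 in MYTHO. Every MYTHO muscle was below every scrmb muscle, and the log2 fold change was -0.56 (SE 0.18; adjusted p = 0.237). Neither passed the test over all probe sets. Members whose groups overlapped lie between *Mytho* and both of these genes. Overlap does not show that those members were unaltered, and a link between position and change was not tested.

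**Figure D3:**
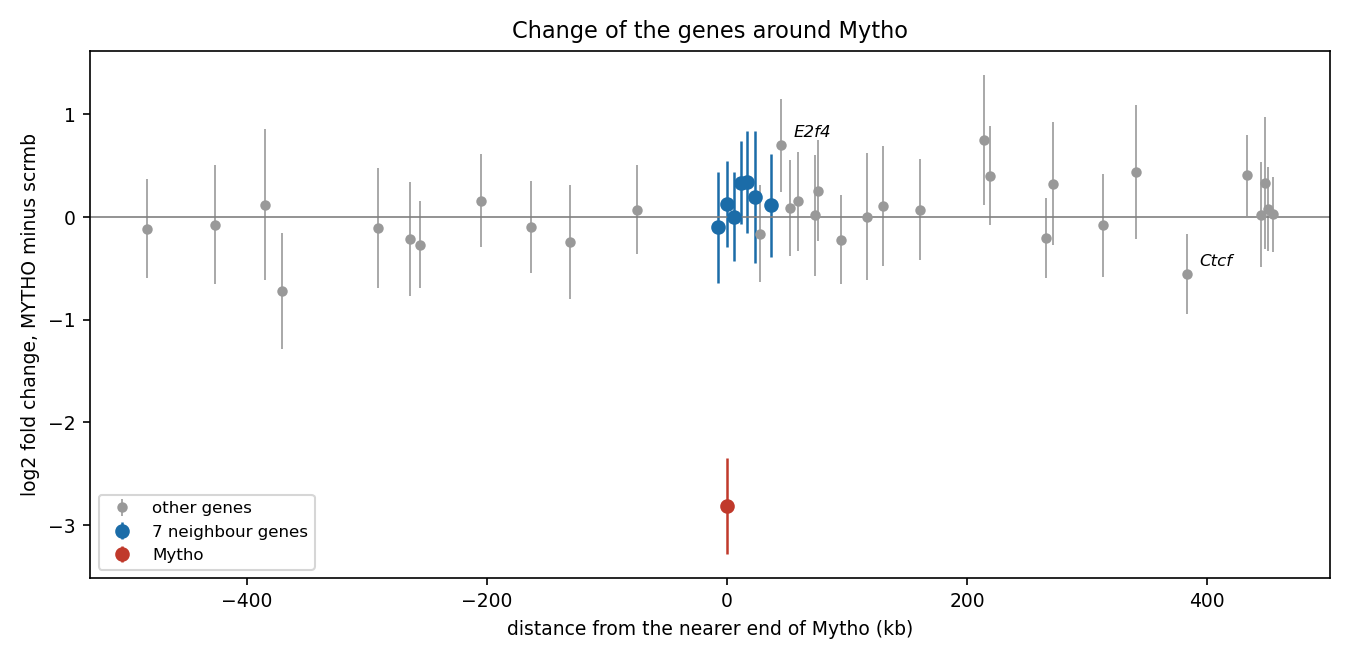
Log2 fold change, MYTHO minus scrmb, with 95% intervals from limma, against the distance of each gene from the nearer end of *Mytho* in kb, where genes before it have negative values. *Mytho* (red) is at -2.81, its 7 neighbours (blue) are between -0.10 and 0.34, and 33 further probe sets within 500 kb (grey) are between -0.72 and 0.75, with *E2f4* and *Ctcf* named.

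Genes whose products work with those of the members were read from lists set by their known roles. The 8 lists held 63 distinct probe sets, of which 1 was called at an adjusted p under 0.05. At an unadjusted limma p under 0.05 there were 7 higher and 1 lower, or 12.7%, against 12.4% of all probe sets. The median log2 fold change was 0.035. Groups did not overlap for *Bcas3*, *Becn1*, *Tnfrsf1a*, *Tnfrsf10b*, *Birc2* and *Exoc4*, beside 6.46% of all probe sets. These partners were named by that separation, so it is no result about the lists. For *Mytho* itself, the 12 partners in phagophore formation (*Bcas3*, the *Wipi* and *Wdr45* genes, *Atg16l1*, *Rb1cc1* and the class III phosphatidylinositol 3-kinase genes) had a median of 0.01 and none was called. *Bcas3* encodes the direct partner of MYTHO. It had a log2 signal of 7.27, 7.11, 6.95 and 7.33 in scrmb and of 7.48, 8.0, 7.71 and 7.34 in MYTHO. The groups were separated by only 0.01, and the log2 fold change was 0.47 (SE 0.19; adjusted p = 0.357). *Becn1*, which encodes the kinase complex subunit Beclin 1, was at 7.41, 7.05, 6.87 and 7.58 in scrmb and at 7.68, 7.60, 7.78 and 7.73 in MYTHO. Its groups did not overlap either, with a log2 fold change of 0.47 (SE 0.19; adjusted p = 0.354).

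Of the 10 *Tradd* partners in death receptor signalling, none was called, 7 had a positive log2 fold change, and the median was 0.24. *Tnfrsf1a*, which encodes the receptor that TRADD binds, had a log2 signal of 9.77, 8.89, 7.97 and 9.23 in scrmb and of 10.11, 9.88, 10.23 and 9.79 in MYTHO. All MYTHO muscles were above all scrmb muscles, by 0.02 at the narrowest. The log2 fold change was 1.04 (SE 0.32; adjusted p = 0.218). *Tnfrsf10b*, which encodes a receptor for the death ligand TRAIL, was at 4.61, 5.22, 5.42 and 5.30 in scrmb and at 5.76, 6.06, 5.64 and 5.57 in MYTHO. Its groups did not overlap, and its log2 fold change was 0.62 (SE 0.21; adjusted p = 0.270). *Birc2*, an inhibitor of apoptosis gene named here after its values were seen, separated the other way, at 8.29, 8.19, 8.17 and 8.15 in scrmb and at 8.0, 7.91, 7.91 and 7.96 in MYTHO, with a log2 fold change of -0.26 (SE 0.16; adjusted p = 0.545).

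The other lists held 1 call. It was *Exoc4*, an exocyst subunit gene among the 12 relatives of *Exoc3l*, at 14.60, 15.05, 14.87 and 14.31 in scrmb and 13.29, 13.04, 13.27 and 13.13 in MYTHO. *Exoc4* fell by 1.52 on the log2 scale (SE 0.20; adjusted p = 0.0373). The call was lost with animal as a fixed replicate block (adjusted p = 0.156), held with animal as a random block (adjusted p = 0.0293), and was lost on leaving out any array other than the scrmb array of animal D, with an adjusted p of up to 0.218. The median of the *Exoc3l* relatives was -0.01. No gene was called among the 3 *Runx* genes that pair with *Cbfb* (median 0.03), the 5 genes of the SCF core and D cyclins beside *Fbxl8* (0.04), 8 probe sets of heat shock factors and heat shock proteins beside *Hsf4* (0.07), 6 *Nol3* partners (0.12) or 9 *B3gnt* and related probe sets (0.10). *Wipi1*, *Casp8* and *Cryab* had an unadjusted p under 0.05 with groups that overlapped.

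**Figure D4:**
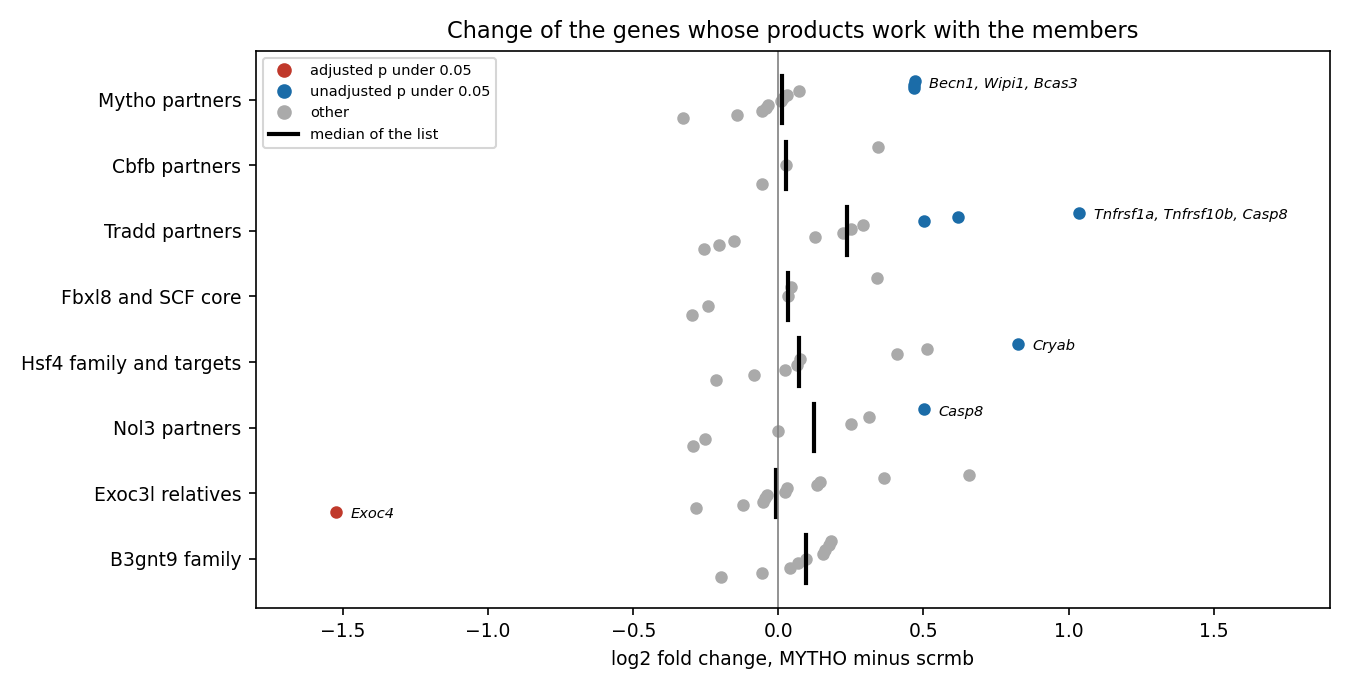
Log2 fold change, MYTHO minus scrmb, on the x axis for each gene of the 8 partner lists, which are the rows; black bars are list medians, red is an adjusted p under 0.05 and blue an unadjusted p under 0.05 in limma. *Exoc4* at -1.52 is the 1 red point, and the list medians lie between -0.01 and 0.24.

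The genes whose signal was most like that of *Mytho* were ranked by Pearson correlation over the 8 arrays, among 21040 genes. The signal of *Mytho* splits the arrays into their 2 groups, so these are genes that split them the same way, and the ranking is a description without a test. Correlations were above 0.9 for 63 genes and below -0.9 for 43. The highest were *Gm884* (0.980), *Slc30a9* (0.964), *Trappc6b* (0.960), *Exoc4* (0.955) and *Olfr215* (0.952). The lowest were *Vti1b* (-0.970), *Tfrc* (-0.961), *Desi1* (-0.955), *Gm6219* (-0.949) and *Map3k11* (-0.948). None of the 7 neighbours was among the genes at either end.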

How the data were processed

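Expression was measured with Clariom S Mouse arrays on 8 GAS samples, 4 per group per the labels. The authors deposited log2 signals computed with the Transcriptome Analysis Console version 4.0.1 at default settings. Per the file headers, these are gene-level SST-RMA values (background correction, signal space transformation, quantile normalization, median polish) with annotation release 36 on mm10, rounded to 2 decimals. Their columns of group averages, fold changes and p-values were not used. The members and lists were chosen with earlier results of these data known, and so support nothing independently.

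Computation started from the log2 signals of all 22206 probe sets, with no filter. The MYTHO and scrmb groups entered a two-sided limma fit without a block (lmFit and eBayes at defaults; limma 3.58.1, R 4.3.3), adjusted by Benjamini-Hochberg over all probe sets. The code was tested on simulated data. A probe set naming several genes (836) cannot separate them. Further genes were named where the groups did not overlap and the unadjusted p was under 0.05, as were the 5 genes correlated most positively with *Mytho* and the 5 correlated most negatively. Precision is limited by 4 arrays per group. Column names carry an animal number found once in each group, and the design injected opposite legs, so a shared number marks 1 mouse. Deviations from the group means correlated at 0.003, -0.001, 0.135 and 0.087 in animals A to D. Alternatives were quantile normalization, median centring, filters, trend and robust eBayes, array weights, removal of saturated probe sets, blocks on animal, other thresholds and windows, and leaving out each array. Start regions came from RefSeq (GRCm38.p6). Probe and hairpin sequences were not used here.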

Additional observations from a re-analysis of the deposited data

Results flagged for a closer look

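In 3 of 48 groups of 4 arrays, over the 24 genes that the rule for naming genes gave, 1 array lay apart from the others by Dixon's criterion at the 95% level (the gap to the nearest array, divided by the range of the group), and about 2.4 would do so by chance. *Mytho* was at 8.80 in the MYTHO muscle of animal C, compared with 8.08 to 8.20 in the other 3, a gap of 0.833 of the range. *Gm884* was at 5.23 in the scrmb muscle of animal C, compared with 5.61 to 5.67, and at 4.24 in the MYTHO muscle of animal B, compared with 4.43 to 4.46. Both gaps were 0.864 of the range.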

How the results depend on the processing

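The log2 fold change of *Mytho* ran from -2.98 to -2.74 over the arrays left out in turn and from -2.85 to -2.77 over the other alternatives, with adjusted p-values from 5e-06 to 0.0156. The count of members called stayed at 1 under every alternative run, and no gene within 500 kb was called under any. With animal as a fixed replicate block, *Mytho* stayed at -2.81 (adjusted p = 0.0156), and the pairing changed no call of a member. Uncalled neighbours changed sign in places, and the cause was not tested. *Tradd* was at -0.00049 with array weights and ran from -0.14 to 0.11 over the arrays left out. Over the same arrays *Cbfb* ran from -0.28 to 0.10, *Nol3* from -0.036 to 0.40 and *Exoc3l* from -0.08 to 0.25. *B3gnt9*, *Fbxl8* and *Hsf4* kept their sign wherever they were fitted, and ran from 0.02 (without the MYTHO array of animal D) to 0.24 (without that of animal A), from 0.24 to 0.45 and from 0.15 to 0.48 over the arrays left out. The filter to the upper 75% removed *B3gnt9* and *Exoc3l*, and that to the upper 50% also *Tradd* and *Fbxl8*, so these have no value there. The median of the genes within 500 kb ran from -0.05 to 0.13 over the arrays left out and from 0.02 to 0.26 otherwise, and was 0.085 within 100 kb and 0.07 within 1000 kb. The value of 0.26 came with the filter to the upper 50%. The mean over several probe sets of a gene was not run, since each member has 1. Over all probe sets, adjusted calls numbered 2 higher and 4 lower, and ranged from 0 to 30 higher and from 1 to 140 lower. At the threshold of the study, 58 higher and 277 lower became 109, 98 and 104 higher without scrmb A, scrmb D and MYTHO D, 38 and 34 higher without scrmb C and MYTHO B, and 484 lower without scrmb D. Signals near the lower end of the range limit what can be read for *B3gnt9* and *Exoc3l*, and may do so for *Fbxl8*.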
